A study of Mus musculus with 47 samples.

Results

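Dppa3, Dppa4 and Pecam1, genes used as markers of mouse pluripotent cells, were followed in single induced pluripotent stem cells (iPSCs) with allele resolution. They are 3 of the 13947 genes in the deposited table of allelic read counts and were chosen by name. The table covers 47 single cells from 1 plate. All cells carry the same genotype, a female cross of a Mus mother with a transgenic X-linked eGFP and a Cast father, so that reads over SNPs can be assigned to the Mus or the Cast allele. They were made from embryonic fibroblasts by lentiviral overexpression of the OSKM factors (Oct4, Sox2, Klf4 and c-Myc), and the labels describe growth in mouse ESC medium with serum, LIF and ascorbic acid. The study's methods describe iPSC controls from picked colonies that were passaged without ascorbic acid, and which culture these cells came from was not settled here.

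The deposited column names put each cell in 1 of 3 classes by its X chromosomes. In 23 cells (bi_allelic in the column names, X-Mus X-Cast in the study, both-X cells below) reads came from both X chromosomes. In 15 cells (cast, X-Cast O-Mus, Cast-X cells below) the Cast X was read, and in 9 cells (mus, X-Mus O-Cast, Mus-X cells below) the Mus X. The Mus share of X-linked counts followed these names in every cell, with 46.9 to 58.5% in both-X cells, 0 to 1.25% in Cast-X cells and 97.6 to 99.2% in Mus-X cells. In the study, iPSCs were grouped by the mean allelic ratio of their X-linked genes. The match therefore follows from the grouping and is not a separate check of the classes. No label ties cells to separate cultures or clones, so each class is 1 sample, and the values below describe these cells without a test. Cells held 71682 to 216451 allelic counts, with medians of 164722, 168885 and 179357 in the same order of classes, and 1 Mus-X cell was below 100000.

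Dppa3 (also Stella or PGC7) is a small chromatin-associated protein of oocytes, early embryos, germ cells and naive pluripotent cells, where it keeps the maintenance methylation factor Uhrf1 off the DNA and protects marked chromatin from oxidation of methylcytosine. Dppa4 is a nuclear DNA-binding protein that works as a pair with Dppa2, which is encoded next to it. The pair marks promoters of developmental genes and activates genes of the early cleavage embryo. Pecam1 (CD31) is an adhesion receptor of the immunoglobulin superfamily, known from the junctions of endothelial cells and from platelets and leukocytes, and it is also displayed on the surface of inner cell mass and embryonic stem cells.

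On GRCm38, Dppa3 (ENSMUSG00000046323.8) lies on the plus strand of chromosome 6 from 122626410 to 122630272, Dppa4 (ENSMUSG00000058550.15) on the plus strand of chromosome 16 from 48283733 to 48294237, and Pecam1 (ENSMUSG00000020717.19) on the minus strand of chromosome 11 from 106654217 to 106750628. No other annotated gene overlaps any of these gene bodies. All 3 are autosomal, so that both alleles can be read in every class. Levels are given as counts of both alleles per 10000 allelic counts of the cell. As counts are made at SNPs, whose number differs between genes, levels of different genes cannot be compared with each other.

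Dppa3 reads were found in 43 of 47 cells, and the level of this gene varied more between cells than that of Dppa4. In both-X cells the lowest, median and highest levels were 0, 3.59 and 30.2. In Cast-X cells they were 0, 6.53 and 71.1, and in Mus-X cells 1.67, 10.6 and 28. The medians of both classes with a single X were above that of both-X cells, yet the ranges of the 3 classes overlapped. Of the Cast-X cells 11 of 15, and of the Mus-X cells 7 of 9, exceeded the both-X median.

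The mean level of Dppa3 was 6.52 ± 8.02 (SD over cells, n = 23) in both-X cells, 11.9 ± 17.5 (n = 15) in Cast-X cells and 11.6 ± 9.16 (n = 9) in Mus-X cells. This was 1.83-fold higher in Cast-X and 1.78-fold higher in Mus-X than in both-X cells, or 0.87 and 0.83 on the log2 scale. The same ratios from summed counts were 0.94 (0.86 to 1.02) and 0.92 (0.83 to 1.01), where the 95% intervals cover counting error only. Neither ratio of means passed 2-fold, a size that 6.97% of 4033 autosomal genes passed upwards in the first comparison and 9.03% in the second. From class medians the Mus-X ratio was 1.56 and from means of logs 1.19, both past 2-fold. Both comparisons share the both-X cells. Between the classes with a single X, the log2 ratio of Dppa3 (Cast-X over Mus-X) was 0.04, and 9.77% of the genes passed 2-fold upwards and 6.74% downwards there. From class medians this ratio was -0.70.

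A single Cast-X cell, replicate 15, held 1398 of the 3057 Dppa3 counts of its class (45.7%), at a level of 71.1 against 20.7 in the next cell. Without it the log2 ratio of Cast-X over both-X cells was 0.24, and that of Cast-X over Mus-X cells -0.59. Without both-X replicate 7, the cell with the highest level in its class, both ratios over both-X cells passed 2-fold, at 1.13 and 1.09, and without replicate 35 they were 1.09 and 1.05. The ratio of Mus-X over both-X cells fell to 0.55 without Mus-X replicate 12 and to 0.65 without replicate 6. Position on the plate moved with this result. In plate columns 1 to 3 the log2 ratio of Cast-X over both-X cells was -0.12 and in columns 4 to 6 it was 1.35, or 0.53 without replicate 15. The ratio of Cast-X over Mus-X cells was -1.02 in columns 1 to 3 and 0.93 in columns 4 to 6, and that of Mus-X over both-X cells was 0.91 and 0.42. Columns 1 to 3 held 12 both-X, 5 Cast-X and 6 Mus-X cells and columns 4 to 6 held 11, 10 and 3, so that class and column are in part confounded, and the part of plate position was not tested.

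Dppa3 was absent from 3 of 23 both-X cells, 1 of 15 Cast-X cells and 0 of 9 Mus-X cells, the last of which allows a share of up to 33.3%. The cells with reads made up 87.0%, 93.3% and 100% of the classes, each of which is 1 sample. Every cell with Dppa3 reads had 3 or more counts. The 4 cells without Dppa3 were not shallow, with a median of 171811 allelic counts against 167041 in the others. All 4 had Dppa4 reads, and 1 of them also lacked Pecam1.

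**Figure D1:**
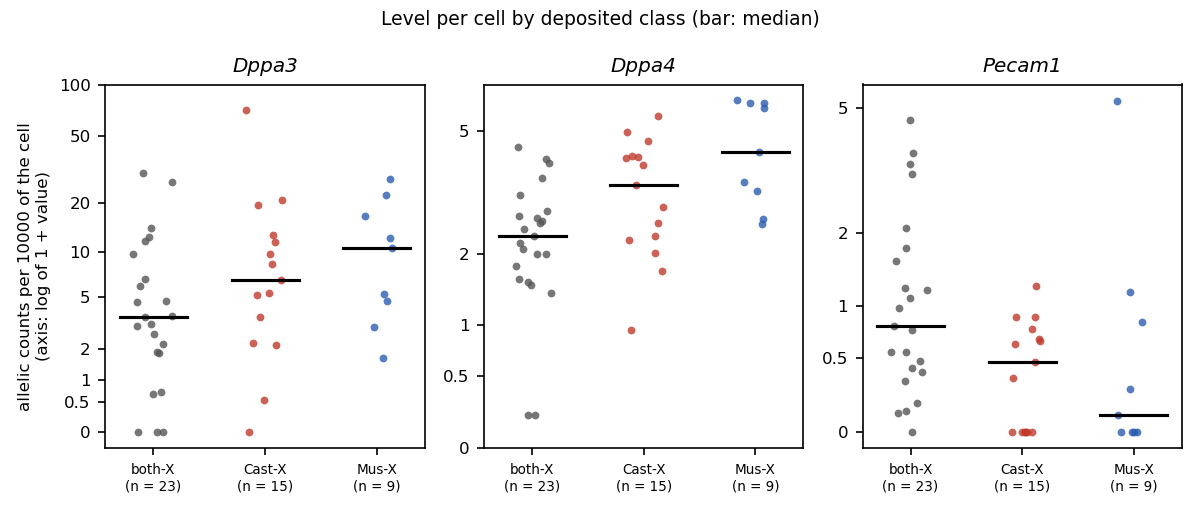
Level of Dppa3, Dppa4 and Pecam1 in each of the 47 cells, in allelic counts per 10000 of the cell on a log axis of 1 plus the value. Points are cells, bars are class medians (Dppa3 3.59, 6.53 and 10.6; Dppa4 2.31, 3.43 and 4.32; Pecam1 0.792, 0.474 and 0.0942), and single cells stand far above their class for Dppa3 (71.1) and Pecam1 (5.22).

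The coefficient of variation (CV, SD over mean) of the Dppa3 level over all cells was 1.31. It was higher than that of 77.1% of the 4033 autosomal genes averaging 5 or more counts, and higher than that of 99% of 404 genes of like mean level, whose median CV was 0.427. The 5 cells with most Dppa3 counts held 45.2% of all its counts. Within classes the CV was 1.23 in both-X, 1.47 in Cast-X and 0.789 in Mus-X cells. The Cast-X value includes replicate 15, at a level of 71.1 against 20.7 in the next cell. It was not computed without that cell, so the order of the classes may rest on it. The Dppa3 alleles moved together over cells, with a Spearman correlation of 0.65 between the Cast and the Mus level, above that of 98.5% of 3676 genes (median 0.21).

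The Cast allele gave most of the Dppa3 counts. Of 7177 counts 34.2% were Mus (33.1 to 35.3), while the rest of chromosome 6 had a median of 45.7% over cells and the autosomal genes had a median of 45.9% (5th to 95th percentile 8.0 to 70.3). The Dppa3 share was lower than that of 74.3% of these genes, so it is skewed but within their range. In the 43 cells with at least 10 Dppa3 counts, the Mus share ran from 0 to 93.2% with a median of 19.1%. Cells with most counts were closer to equal shares, such as replicate 15 with 667 Cast and 731 Mus counts (52.3% Mus).

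In 11 of these 43 cells all Dppa3 reads were Cast, in 32 both alleles were read, and in 0 only Mus was read, which allows a share of up to 6.98%. In 5 cells Mus gave more than 50% of the counts. Cells with Cast reads only were 6 of 20 both-X, 5 of 14 Cast-X and 0 of 9 Mus-X cells. By the Dppa3 counts of the cell, Cast only were 3 of 3 cells with 10 to 19 counts, 2 of 8 with 20 to 49, 5 of 12 with 50 to 99, 1 of 11 with 100 to under 200 and 0 of 9 with 200 or more. Over all 13514 autosomal genes, whatever their mean count, 27.3, 15.5, 6.79, 4.99 and 6.90% of gene and cell pairs with as many counts were Cast only.

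By class the summed Mus share of Dppa3 was 28.2% (26.4 to 30.1) in both-X, 36.3% (34.6 to 38) in Cast-X and 38.7% (36.4 to 41) in Mus-X cells. The Cast-X value rested on replicate 15, without which it was 22.8%. With each cell left out in turn, the share stayed between 24.6 and 29.3% in both-X and between 35.1 and 41% in Mus-X cells. Split by allele, the log2 ratio of Mus-X over both-X cells was 1.36 for Mus Dppa3 and 0.56 for Cast Dppa3. That of Cast-X over both-X cells was 1.16 for Mus and 0.75 for Cast, and without replicate 15 it was -0.11 for Mus and 0.36 for Cast.

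**Figure D2:**
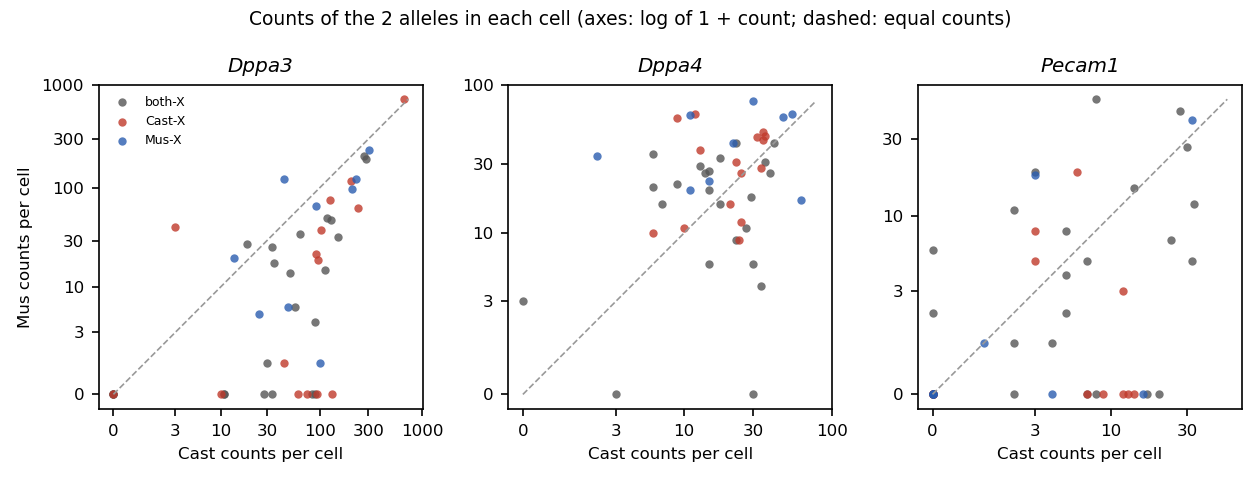
Cast counts (x axis) against Mus counts (y axis) of each gene in each cell, on log axes of 1 plus the count, with a dashed line at equal counts. For Dppa3, 11 cells lie on the x axis (Cast reads only) and the cell with most counts (667 Cast, 731 Mus) lies on the line, while Dppa4 cells scatter on both sides of it.

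Dppa3 sits in a cluster of pluripotency genes. Gdf3, a TGF-beta family ligand, ends 16.3 kb before it on the opposite strand, and the homeobox gene Nanog and the glucose transporter gene Slc2a3 follow at 77.2 and 97.54 kb. Gdf3 had a Mus share of 24.6% (23.5 to 25.8), below that of Dppa3, and Phc1, a Polycomb gene 286 kb away, had 33%. Nanog (54.9%) and Slc2a3 (63.5%) had more Mus than Cast reads. Over all 6 genes tested within 1 Mb of Dppa3 the share ran from 17.1% (A2m) to 63.5%, and 3 were below Dppa3.

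Gdf3 differed from Dppa3 in that nearly every cell read both alleles, with 1 of 47 cells Cast only and a median Mus share per cell of 25.0%. The log2 ratio of Gdf3 was 0.51 in Cast-X and 0.52 in Mus-X over both-X cells. Nanog went the other way, at -1.14 and -1.26, and Slc2a3 was at -0.43 and -1.04. Across the 47 cells the Dppa3 level had a Spearman correlation of 0.07 with Gdf3, -0.12 with Nanog and 0.18 with Slc2a3, although these genes share a neighbourhood.

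Dppa4 reads were found in all 47 cells, and its level was higher in both classes with a single X. The lowest, median and highest levels were 0.207, 2.31 and 4.49 in both-X cells, 0.947, 3.43 and 5.52 in Cast-X cells, and 2.55, 4.32 and 6.13 in Mus-X cells. The ranges overlapped, but all 9 Mus-X cells were above the both-X median and 4 of them were above the highest both-X cell. Of 4033 autosomal genes 27 (0.669%) had every Mus-X cell above that median. Of the Cast-X cells 11 of 15 were above the both-X median and 3 were above its highest cell.

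Mean Dppa4 levels were 2.35 ± 1.08 (SD over cells, n = 23) in both-X, 3.32 ± 1.33 (n = 15) in Cast-X and 4.47 ± 1.53 (n = 9) in Mus-X cells. The level was thus 1.41-fold higher in Cast-X and 1.90-fold higher in Mus-X than in both-X cells (log2 0.50 and 0.93), and the ratios from summed counts were 0.47 (0.33 to 0.61) and 0.93 (0.78 to 1.08). Between the classes with a single X, the log2 ratio of Cast-X over Mus-X was -0.43. The ratio was higher than that of 80.4% of the tested genes in the first comparison and 89.8% in the second. Neither passed 2-fold, which 12.2% and 18.3% of the genes passed in either direction.

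No single cell decided the Dppa4 values. With each cell left out in turn the log2 ratios were 0.43 to 0.57 for Cast-X and 0.86 to 1.00 for Mus-X over both-X cells. The highest of these reached 2-fold without Mus-X replicate 19 or 37. Chromosome 16 without Dppa4 took 2.64, 2.57 and 2.44% of the autosomal counts (medians of both-X, Cast-X and Mus-X cells), lowest in the class with the highest Dppa4 level.

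The CV of the Dppa4 level was 0.481. Of all tested genes 11% had a lower one, and of 403 genes of like mean level, with a median CV of 0.585, 24.6% did. A pair of both-X cells stood below all others, with 3 Dppa4 counts each (levels 0.207 and 0.210), in 1 case all Cast and in the other all Mus. These cells, replicates 28 and 38, had totals of 144771 and 142902 and Dppa3 levels of 12.3 and 11.7, both above the both-X median.

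The Mus allele gave 56.0% of the 2374 Dppa4 counts (54.0 to 58.0), higher than for 78.5% of the autosomal genes. In the 45 cells with at least 10 Dppa4 counts the share ran from 0 to 94.4% with a median of 57.1%. Both alleles were read in 44 of them, 1 was Cast only and 0 were Mus only, which allows a share of up to 6.67%. By class the share was 49.4% (46.1 to 52.8) in both-X, 58.9% (55.4 to 62.3) in Cast-X and 61.2% (57.4 to 65.0) in Mus-X cells. With each cell left out in turn it was 47.7 to 51.2, 56.3 to 60.2 and 58.2 to 66.7%, so these summed values of both-X cells stayed below the others. Cell by cell the shares overlapped, at 0 to 85.4% in both-X, 27.3 to 87.0% in Cast-X and 21.5 to 94.4% in Mus-X cells. The rest of chromosome 16 showed no such step, with medians of 48.1, 48.0 and 47.9%.

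Split by allele, Mus Dppa4 had log2 ratios of 0.71 in Cast-X and 1.22 in Mus-X over both-X cells, and Cast Dppa4 had 0.25 and 0.58. From summed counts, Cast Dppa4 was at 0.17 (-0.03 to 0.38) in Cast-X cells, an interval that includes no difference, and at 0.55 (0.32 to 0.77) in Mus-X cells. Mus Dppa4 was at 0.73 (0.54 to 0.91) and 1.24 (1.04 to 1.44). The Cast and Mus levels of Dppa4 correlated weakly over cells (Spearman 0.21, near the median of 0.21 over genes).

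Dppa2, the partner of Dppa4, begins 9.67 kb after the end of Dppa4 on the same strand, and its values differed from those of Dppa4. Dppa2 reads were found in 42 of 47 cells. Its median level was 1.01 in both-X, 0.844 in Cast-X and 0.156 in Mus-X cells, and the log2 ratios of its means over both-X cells were -0.38 and -0.55. Of 738 Dppa2 counts 80.9% were Mus (77.9 to 83.7), a share that 1.69% of the tested genes exceeded, and it was 81.8, 79.8 and 80.0% in the 3 classes. Over the 47 cells the levels of Dppa4 and Dppa2 had a Spearman correlation of -0.08.

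**Figure D3:**
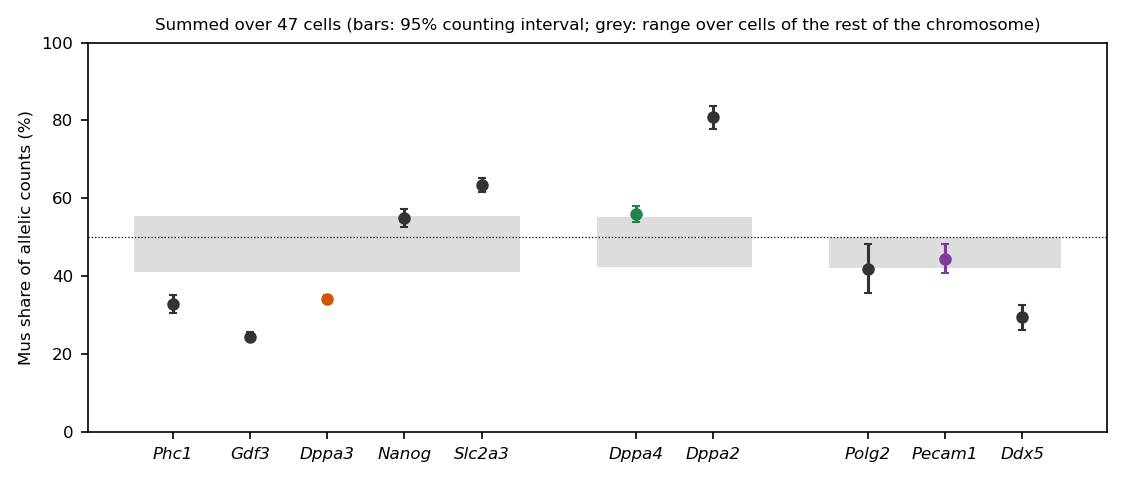
Mus share of the counts summed over 47 cells (y axis, %) for the 3 genes and neighbours on the same chromosome, with 95% counting intervals. Grey bands give the range over cells for the rest of the chromosome and the dotted line marks 50%. Dppa3 (34.2%) lies between Gdf3 (24.6%) and Nanog (54.9%), and Dppa4 (56.0%) lies below its partner Dppa2 (80.9%).

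Pecam1 had fewer cells with reads in both classes with a single X. Reads were found in 22 of 23 both-X cells (95.7%), 9 of 15 Cast-X cells (60.0%) and 5 of 9 Mus-X cells (55.6%). Each class is a single sample, so these shares describe the cells and give no test between classes. The differences from both-X cells were -35.7 and -40.1 percentage points, against medians of -0.29 and -0.48 over the 4033 autosomal genes. Of these genes, 81 (2.01%) had as large a drop in Cast-X and 124 (3.07%) in Mus-X cells. They include genes read in every cell, such as Gdf3, and no set of like mean level was compared.

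The 11 cells without Pecam1 reads had a median of 175131 allelic counts against 166148 in the other 36. They included the 3 shallowest of all cells, at 71682 (Mus-X), 112335 and 122296 counts (both Cast-X), and the part of depth in these 3 was not tested. With every cell thinned to 70000 counts, 20.96, 8.93 and 4.47 cells of the 3 classes were expected to keep a read. With 3 counts as the minimum, 20, 9 and 4 cells had Pecam1. The cells without Pecam1 had a median Dppa4 level of 3.94 against 2.59 in the others, and a median Dppa3 level of 6.53 against 4.68, but 10 of the 11 had a single X, so this cannot be told apart from the difference between classes.

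The lowest, median and highest Pecam1 levels were 0, 0.792 and 4.59 in both-X cells, 0, 0.474 and 1.24 in Cast-X cells, and 0, 0.0942 and 5.22 in Mus-X cells. High values were found mostly in both-X cells, with 1 exception among the Mus-X cells. The ranges overlapped, and 3 of 15 and 3 of 9 cells of the classes with a single X exceeded the both-X median.

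Mean Pecam1 levels were 1.28 ± 1.28 (SD over cells, n = 23) in both-X, 0.436 ± 0.418 (n = 15) in Cast-X and 0.843 ± 1.70 (n = 9) in Mus-X cells. The level was 2.93-fold lower in Cast-X than in both-X cells (log2 -1.55, and -1.48 with an interval of -1.79 to -1.18 from summed counts). Pecam1 was the 1 gene of the 3 past 2-fold there, against 5.21% of the autosomal genes past 2-fold downwards, and 1.64% of these genes had a lower ratio. The ratio was -2.40 in plate columns 1 to 3 and -0.69 in columns 4 to 6, and -0.74 from class medians, so the last 2 values did not pass 2-fold. The part of plate position was not tested.

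For Mus-X over both-X cells, the log2 ratio of Pecam1 was -0.60, or -0.69 (-0.99 to -0.39) from summed counts, and 9.27% of the genes passed 2-fold downwards. From class medians it was -3.07 and from means of logs -1.06, both past 2-fold. Mus-X replicate 19 held 71 of the 114 counts of its class (62.3%), at a level of 5.22 against 1.17 in the next cell. Without it the ratio was -2.11. The order of the classes with a single X turned with this cell, since the log2 ratio of Cast-X over Mus-X was -0.95 with it and 0.56 without it. It was 2.33 from class medians, and -1.68 and 0.22 in plate columns 1 to 3 and 4 to 6. Mus-X replicate 19 was also the Mus-X cell with the highest Mus share of Dppa3 (72.9%).

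Of 704 Pecam1 counts 44.6% were Mus (40.9 to 48.4), near the median of 46.9% for the rest of chromosome 11. Single cells departed far from this value. In the 22 cells with at least 10 Pecam1 counts the share ran from 0 to 86.7%, 6 were Cast only and 0 were Mus only, which allows a share of up to 13.6%. Its SD over cells was 33.3 percentage points, above that of 84.5% of 2409 genes with 20 or more such cells. Cast only were 5 of 10 Pecam1 cells with 10 to 19 counts, 1 of 8 with 20 to 49 and 0 of 4 with 50 to 99. Over all autosomal genes, whatever their mean count, 27.3, 15.5 and 6.79% of gene and cell pairs were.

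By class the Mus share of Pecam1 was 46.4% (41.9 to 51.0) in both-X, 30.7% (22.4 to 40.03) in Cast-X and 50.9% (41.3 to 60.4) in Mus-X cells. The Cast-X value rested on 35 Mus counts, 19 of them in replicate 9, without which it was 18.0%. The 14 genes tested within 1 Mb of Pecam1 had Mus shares of 20.4 to 74.4% (median 48.0%), and 5 were below Pecam1. The CV of the Pecam1 level was 1.31, higher than that of 77.4% of all tested genes and of 88.3% of 403 genes of like mean level.

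Other cell types that carry Pecam1 were looked for by their markers. Of 12 endothelial and blood markers 9 were in the table, and 5 of these (Cdh5, Kdr, Tie1, Emcn and Ptprc, which define endothelium or leukocytes) were at 0 in all 47 cells. The other 4, none of which reached a mean of 5 counts, were Egfl7 with reads in 24 of 47 cells, Plvap in 11, Vwf in 10 and Tek in 8. Mean levels of Vwf were 0.127 in both-X, 0.0235 in Cast-X and 0.303 in Mus-X cells, those of Plvap 0.0597, 0.00973 and 0.208, those of Egfl7 0.176, 0.270 and 0.218, and those of Tek 0.0738, 0.0396 and 0.0328. Their summed level ran from 0 to 1.31 in both-X, 0 to 1.16 in Cast-X and 0.104 to 1.76 in Mus-X cells, with medians of 0.478, 0.254 and 0.698. The part of such cells in the Pecam1 level was not tested.

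**Figure D4:**
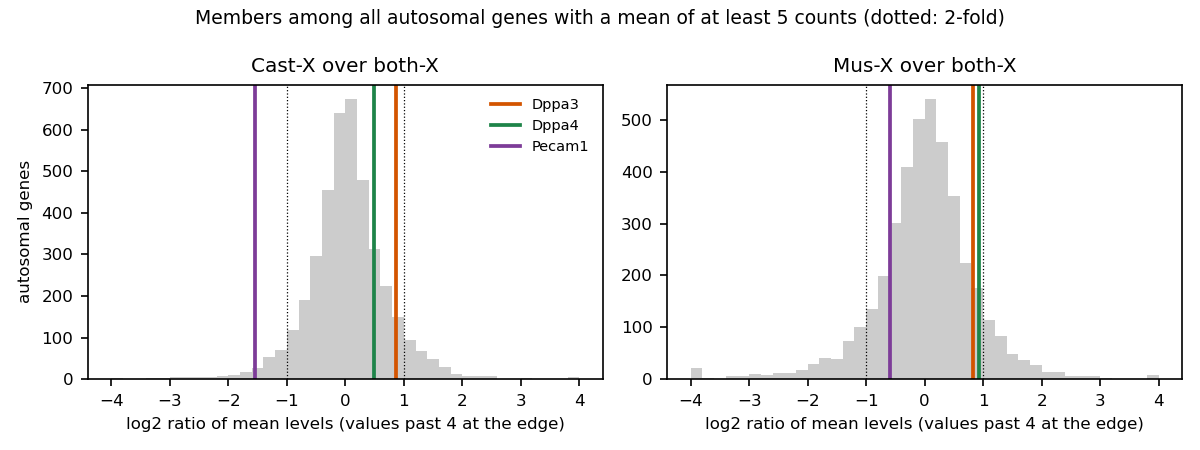
Number of autosomal genes (y axis) by log2 ratio of mean levels (x axis) for both classes with a single X over both-X cells, with the 3 genes as coloured lines and 2-fold as dotted lines. Dppa3 (0.87 and 0.83) and Dppa4 (0.50 and 0.93) lie on the upper side of the distribution without passing 2-fold by class means, and Pecam1 (-1.55 and -0.60) lies on the lower side.

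The 3 genes did not rise and fall together. Over all 47 cells, which share plate and scaling, the Spearman correlation was 0.19 for Dppa3 and Dppa4, 0.03 for Dppa3 and Pecam1, and -0.16 for Dppa4 and Pecam1. Within both-X cells the values were 0.09, 0.36 and 0.01, within Cast-X cells 0.20, 0.23 and 0.13, and within Mus-X cells -0.53, -0.26 and -0.03. The levels of Dppa3, Dppa4 and Pecam1 correlated with the total counts of the cell at -0.27, 0.12 and 0.03, and with its number of genes with reads at -0.21, -0.12 and 0.27.

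For likeness over cells, the top 3 and the bottom 2 by Spearman correlation were taken from 4437 genes with reads in at least 50% of cells. They are the extremes of many values and are given as a description. Of all these genes 95% had correlations between -0.31 and 0.32 with Dppa3, -0.33 and 0.33 with Dppa4, and -0.29 and 0.35 with Pecam1.

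Highest with Dppa3 were Ankhd1, an ankyrin repeat protein (0.62, and 0.39 in both-X cells alone), the lactate dehydrogenase gene Ldhb (0.55 and 0.47) and Rcc2, a regulator of mitosis (0.51 and 0.36). Lowest were the nuclear transport GTPase gene Ran (-0.54 and -0.54) and the Fc receptor gene Fcgr2b (-0.51 and -0.29). With Dppa4 the highest were Fnta, a farnesyltransferase subunit (0.49 and 0.53), Cox4i1, a subunit of cytochrome c oxidase (0.48 and 0.26), and the ribosomal protein gene Rps15 (0.48 and 0.49). The lowest were the T-box factor gene Tbx3 (-0.56 and -0.34) and Zyg11a (-0.56 and -0.51).

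With Pecam1 the highest were Ahnak, a large scaffold protein (0.65 and 0.56), the primase subunit gene Prim2 (0.54 and 0.49) and Nanog (0.52 and 0.49). Among the lowest was Purb, which encodes a nucleic acid-binding protein (-0.49 and -0.64). Of the genes named here, Tbx3 and Nanog belong to the pluripotency list.

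**Figure D5:**
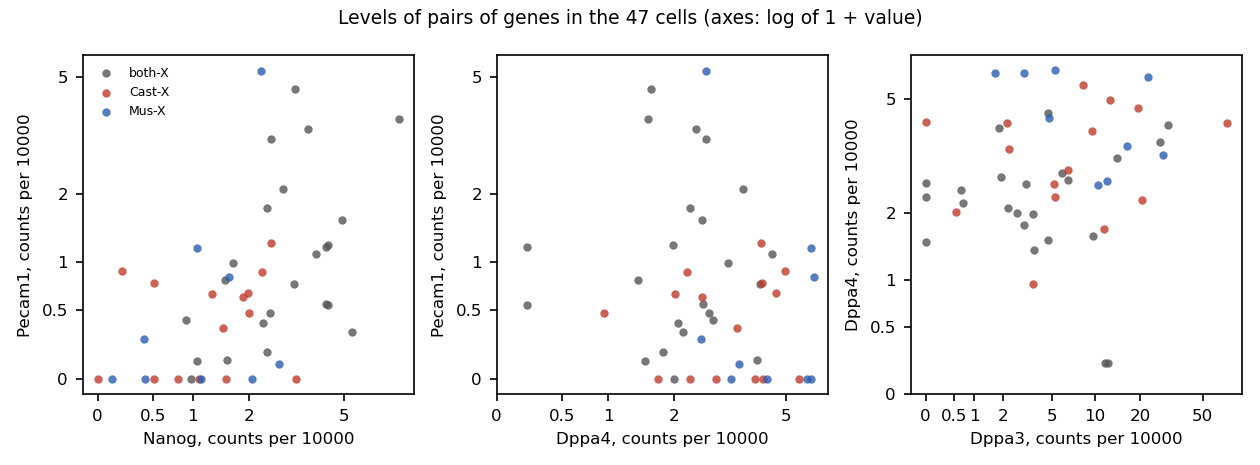
Levels of Nanog and Pecam1, Dppa4 and Pecam1, and Dppa3 and Dppa4 in the 47 cells (counts per 10000 on log axes of 1 plus the value), with each cell coloured by class. Pecam1 is at 0 in 11 cells, most of them with a single X, and its level correlates with Nanog (Spearman 0.52) and little with Dppa4 (-0.16).

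Among 28 pluripotency genes listed for comparison, 25 were in the table and 24 reached a mean of 5 counts. In Cast-X over both-X cells 9 were higher and 15 lower, with a median log2 ratio of -0.17 against 0.03 over all tested genes. The higher genes include the X-linked Nr0b1 (0.64, and 0.16 in Mus-X over both-X cells), while the tested genes are autosomal. Past 2-fold were 2 upwards, the RNA-binding protein gene Lin28a (1.24) and the nuclear receptor gene Nr5a2 (1.07), against 6.97% of all genes. Nr5a2 rested on Cast-X replicate 40, without which its ratio was -0.14. The 4 past 2-fold downwards were the transcription factor genes Nanog (-1.14), Prdm14 (-1.23), Klf5 (-1.55) and Tbx3 (-1.13), against 5.21%. Pecam1 at -1.55 was thus level with Klf5, the lowest of the list.

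In Mus-X over both-X cells 13 of the 24 were higher and 11 lower, with a median of 0.08 against 0.04 over all genes. Of the list 0 passed 2-fold upwards (9.03% of all genes did) and 6 passed it downwards (9.27% of all genes), namely Tbx3 (-3.62), Klf4 (-2.01), Prdm14 (-1.90), Tfcp2l1 (-1.40), Nanog (-1.26) and Klf5 (-1.13), all transcription factor genes. The Tbx3 reads of the class came from 1 of 9 cells, and Klf5 was at -0.96 without Mus-X replicate 27. Klf4 had reads in 4 of 9 cells and was at -2.90 without the same replicate. Dppa4 at 0.93 and Dppa3 at 0.83 were above every gene of the list, of which the highest were the adhesion molecule gene Epcam (0.82) and Lin28a (0.74). Dppa3 at 0.55 without replicate 12 is below both. The core factor genes Pou5f1 (-0.17 and 0.35 in the 2 comparisons) and Sox2 (-0.12 and -0.54) stayed within 2-fold.

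Across cells 3 of the 24 genes had a correlation with Dppa3 below the central 95% of all genes and 0 above it. These 3 were Tbx3 (-0.47, and -0.43 in both-X cells alone), Klf5 (-0.46 and -0.45) and L1td1 (-0.36 and -0.38), an RNA-binding protein gene. For Dppa4 the 3 lowest were Tbx3 (-0.56), Tfcp2l1 (-0.47) and Nanog (-0.35), and 1, Lin28a (0.34), was above. In both-X cells alone these were weaker, at -0.34, -0.14, -0.15 and 0.11. For Pecam1 Nanog (0.52, and 0.49 in both-X cells alone) was above and Gdf3 (-0.31 and -0.04) below. The part of the class differences in these correlations was not tested.

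Of 17 genes listed as partners or targets of the 3, 10 were in the table and 5 reached a mean of 5 counts. Dppa2 had ratios below 0 in both comparisons with both-X cells and the other 4 above 0, with 0 past 2-fold. The maintenance methylation factor genes Uhrf1 and Dnmt1, on whose activity Dppa3 bears, had log2 ratios of 0.16 and 0.43 in Cast-X and 0.26 and 0.42 in Mus-X over both-X cells. The dioxygenase genes Tet1 and Tet2 had 0.22 and 0.05, and 0.51 and 0.27. The genes Cd38, Itgb3, Ptpn11 and Ptpn6, which encode a ligand, a binding integrin subunit and phosphatases of Pecam1, had reads in 8, 6, 24 and 8 of 47 cells and were too low to compare.

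Markers of other lineages moved with the classes in part. The summed level of 10 fibroblast markers in the table (12 listed, 3 of them at 0 in all cells) had medians of 4.17 in both-X, 9.30 in Cast-X and 4.98 in Mus-X cells, with ranges of 1.21 to 14.2, 2.78 to 28.3 and 0.754 to 11. Fn1, the fibronectin gene, carried this sum with 4853 counts and medians of 3.38, 9.18 and 4.98, while the 6 others with reads had 4 to 91 counts each. The 7 germ cell markers in the table (8 listed) had summed medians of 3.99, 1.47 and 1.21 and ranges of 0 to 18.5, 0.163 to 8.27 and 0.390 to 5.51. Dazl, a germ cell RNA-binding protein gene, gave 1781 counts, most of this sum, and had log2 ratios of -2.10 and -4.37. Not all members were lower, as the mean level of Ddx4 was 0.123, 0.242 and 0.0835 and that of Sycp3 0.0813, 0.114 and 0.161 in the 3 classes.

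The 5 primitive endoderm markers in the table (8 listed, 2 at 0) had summed medians of 0, 0.612 and 0.333 and highest values of 3.27, 10.95 and 10.04, nearly all from the laminin gene Lama1 (995 counts), as Sox7 had 11 counts, Gata4 had 3, and Gata6 and Pdgfra had 0. The 8 primed and early lineage markers (10 listed, 1 at 0) had medians of 2.12, 2.15 and 2.93 and ranges of 0.477 to 3.79, 0 to 7.78 and 0.0942 to 12.9. Members moved apart, as Lef1 had log2 ratios of 1.501 and 1.38 over both-X cells and Dnmt3b 0.14 and 0.91, while the mean level of Otx2 was 0.338, 0.0809 and 0.0673 in the 3 classes. The 6 trophoblast markers (7 listed, 4 at 0) had medians of 0 in all 3 classes and highest values of 0.778, 0.489 and 0. The part of these cell states in the differences of Dppa3, Dppa4 and Pecam1 between classes was not tested.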

How the data were processed

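Single iPSCs of 1 plate were sorted into a GpC methylase mix and incubated in it to label open chromatin. Polyadenylated RNA was then isolated by G&T-seq, and cDNA was amplified by PCR without molecular identifiers. The authors deposited whole-number allelic counts per gene, not normalized, with 2 columns per cell, and a minimum of 4 SNPs per gene was applied according to the methods. The submitters' processing notes name STAR 2.5.3a, SAMtools and mm10. For allelic analyses the methods describe counts kept at SNP positions and assigned to genes, so that a read over several SNPs may be counted more than once, but they do not name this plate.

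All labels read iPSCs, so the class was taken from the deposited column names. Counts of both alleles were scaled to 10000 per cell with Python 3.11.15, numpy 2.4.6, pandas 2.3.3 and scipy 1.17.1, and plotted with matplotlib 3.10.9. Genes were placed with GENCODE M21 on GRCm38 (13945 of 13947). No 2 cells held identical values. Cells are not replicates, so no p-value was computed. Class means were compared as log2 ratios beside all autosomal genes averaging 5 or more counts. Intervals (95%, Poisson or Clopper-Pearson) were given for ratios of summed counts and for allelic shares, and cover counting error only. Upper limits for shares of cells treat cells as independent, so they are a description. Shares per cell used cells with at least 10 counts of the gene. The script was tested on simulated data. Named genes were the 3 genes, the partner and pluripotency lists, and for each gene the 3 highest and 2 lowest correlations. Of these correlations 1 is not reported here. Neighbours within 1 Mb, lineage markers and single cells were named in addition, after their values were seen. The genes and lists were chosen with earlier results of these data known. Alternatives changed the scaling, the summary over cells, the cells, the allele and the count minimum.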

Additional observations from a re-analysis of the deposited data

Results flagged for a closer look

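The highest Pecam1 level among the 9 Mus-X cells was 5.22, in replicate 19, and stood apart from the others, the next of which was at 1.17. The gap took a share of 0.776 of the range of the class, above Dixon's 95% critical value of 0.493 for 9 values. Chance places about 1 in 20 groups of normally distributed values above it, and 10 such checks were made. The 9 levels include 4 at 0 and come from cells of 1 sample, so this rate need not hold here and the value is a description. The cell had 32 Cast and 39 Mus counts of Pecam1 and 135989 allelic counts in all.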

How the results depend on the processing

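Of 182 alternatives over 30 results, 119 were labelled as leaving the value the same and 63 as moving it. The limit was the counting error for ratios and allelic shares, and 1.5 times for counts. Correlations and CVs have no counting error here, and the limit used for them is not stated. Of 110 alternatives for the ratios, 99 kept the sign, and no ratio past 2-fold turned. Values below are log2 ratios. For Dppa3 in Cast-X over both-X cells they were 0.98 with raw counts, 0.75 scaled without chromosome 1, 0.77 from means of logs, 0.75 for Cast and 1.16 for Mus alone, -0.12 in plate columns 1 to 3, 1.35 in columns 4 to 6, and 0.24 to 1.13 with 1 cell left out, lowest without the cell with most Dppa3. In Mus-X over both-X cells they were 0.70 without chromosome 1, 1.56 from medians, 1.19 from means of logs, 0.93 in cells above 100000 counts, 0.56 for Cast, 1.36 for Mus, 0.42 in columns 4 to 6 and 0.55 to 1.09 with 1 cell left out. In Cast-X over Mus-X cells they were -0.70, -0.42, -0.062, 0.18 and -0.20 in the same order from medians to Mus, -1.02 and 0.93 in the plate column sets and -0.59 to 0.32 with 1 cell left out. Dppa4 moved by allele alone, at 0.25 (Cast) and 0.71 (Mus) in Cast-X and 0.58 and 1.22 in Mus-X over both-X cells. Pecam1 in Cast-X over both-X cells was at -0.74 from medians, -1.11 for Cast, -2.28 for Mus, -2.40 and -0.69 in the plate column sets. In Mus-X over both-X cells it was at -3.07 from medians, -1.06 from means of logs and -2.11 to -0.42 with 1 cell left out. In Cast-X over Mus-X cells it was at 2.33 from medians, -0.34 from means of logs, -0.39 for Cast, -1.80 for Mus, -1.68 and 0.22 in the plate column sets and -1.15 to 0.56 with 1 cell left out. With a mean of at least 1 count, 26.6, 34.3 and 33.3% of genes passed 2-fold in the 3 comparisons, against 12.2, 18.3 and 16.5%. The Mus share of Dppa3 was 23.2% as a mean per cell at 10 or 3 counts, 25.6% at 30, 19.1% as a median and 29.8 to 34.8% with 1 cell left out. That of Dppa4 was 53.8% at 30 counts, and that of Pecam1 40.6% at 10 counts, 35.8% at 3 and 40.7 to 46.3% with 1 cell left out. In both-X cells alone the correlation with Pecam1 was 0.36 for Dppa3 and 0.012 for Dppa4, and the CV of Pecam1 was 1.00. The plate column sets, and listed genes without single cells, were chosen after seeing the data. The cause of these changes was not tested. Shares of Pecam1 rest on few counts per cell. No paired analysis was possible because all cells have 1 label and the numbers only name them.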
